A study of Mus musculus with 12 samples.

Results

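The family of very long chain fatty acid elongases comprises Elovl1 to Elovl7, which were taken from the deposited count table by their symbols. All 7 were found among the 23420 genes of the table. RNA was sequenced from inguinal white adipose tissue (iWAT), the subcutaneous fat pad in which beige adipocytes form, of male C57BL/6 mice labelled 10 weeks old, in 4 groups of 3. The WT genotype was HIF2a loxP/loxP without Cre. HIF2α AKO mice carried Adipoq-Cre with HIF2a loxP/loxP, so that the Cre transgene, driven by an adipocyte promoter, and the intended loss of HIF2α always came together, and every mouse, controls included, carried the floxed alleles. Before tissue collection, both genotypes spent either 1 week at 30 °C (thermoneutral, TN) or 3 days in the cold, at 4 to 6 °C. The comparisons address how elongase transcripts differ between cold and TN tissue within each genotype, and between the genotypes at each temperature.

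Elongases sit in the endoplasmic reticulum and catalyse the first and rate-limiting step of a cycle that lengthens fatty acids by a pair of carbons at a time, in which an acyl-CoA is condensed with malonyl-CoA. The members differ in substrate. Elovl1, Elovl3, Elovl6 and Elovl7 act mainly on saturated and monounsaturated chains, Elovl2 and Elovl5 act on polyunsaturated chains, and Elovl4 makes ultra-long chains in retina, skin and brain. In adipose tissue, Elovl6 turns palmitate into stearate downstream of de novo lipogenesis, and Elovl3 is known as a gene of cold-exposed brown fat.

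The 7 genes lie apart in the genome (GRCm38), at chr4:118428093-118432953 (Elovl1), chr13:41182381-41220405 (Elovl2), chr19:46131897-46135694 (Elovl3), chr9:83778692-83806277 (Elovl4), chr9:77917364-77984519 (Elovl5), chr3:129532355-129638495 (Elovl6) and chr13:108214404-108285683 (Elovl7), as GENCODE vM21 gives them. Elovl2 and Elovl4 are on the minus strand and the others on the plus strand. To show how alike the members are where the enzymes share their signature, the histidine box of the active site, 30 coding bases around it are given for each gene, 5′ to 3′ on the coding strand. Capitals mark the 5 codons of the box, that is a histidine codon, any 2 codons and 2 histidine codons, which a search found at 1 place in the longest coding sequence of each of the 7 members.
Elovl1, exon 6, chr4:118431445-118431474: accttcctcCATGTCTTCCACCACtcggtg
Elovl2, exon 5, chr13:41189995-41190024: accttccttCATGTCTATCACCACgcgtcc
Elovl3, exon 4, chr19:46134413-46134442: atctttgtcCACTGGTACCACCACagcaca
Elovl4, exon 4, chr9:83785084-83785113: tccttccttCACGTGTACCACCACtgcacc
Elovl5, exon 5, chr9:77976841-77976870: accgtgctcCATGTCTACCACCACgctacc
Elovl6, exon 4, chr3:129633098-129633127: atcttcctgCACTGGTACCACCACatcact
Elovl7, exon 6, chr13:108274322-108274351: actttccttCATGTCTTCCATCATacgatc
The box had 6 different spellings among the 7 genes, and a single one was held by 2 members, Elovl3 and Elovl6. Over the whole coding sequences, the 21 pairs of members were identical at between 55.3 and 66.0% of the aligned bases, with Elovl2 and Elovl5 the closest pair. The longest stretch that any 2 members shared in their coding transcripts was 23 bases.

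Libraries held between 22368316 and 35204631 reads counted on genes. They were compared in 1 edgeR quasi-likelihood model of the 4 groups, in which 15306 genes passed the filter on low counts. Levels are given as CPM, the TMM-scaled count set against the size of the library, and a gene was called when its p adjusted by Benjamini-Hochberg over all tested genes was below 0.05. Epas1, which encodes HIF2α, is the targeted gene. Counts over the whole gene do not resolve its floxed exon, so they cannot check the genotype labels. The log2 fold change of Epas1 in libraries labelled HIF2α AKO was -0.05 (SE 0.20) at TN and 0.40 (SE 0.20) in cold. These whole-gene counts were thus not lower, and genotypes are given as labelled. The adipocyte markers Adipoq, Plin1, Fabp4, Cidec, Lipe and Lep were detected in all 12 libraries, with summed levels between 4297 and 11548 CPM at TN and between 14194 and 27537 CPM in cold. Several libraries stood apart. Cold WT replicate 3 had the highest adipocyte sum (27537 CPM) and the lowest macrophage sum (1225 CPM, against 2126 and 2435 in the other cold WT libraries), whereas TN WT replicate 2 and TN HIF2α AKO replicate 1 had the lowest adipocyte sums (4297 and 6431 CPM) and the highest lymphocyte sums (1184 and 1200 CPM). Skeletal muscle markers summed to 1405 CPM in TN HIF2α AKO replicate 2 and 1110 CPM in cold HIF2α AKO replicate 1, against at most 83.5 CPM elsewhere, and epithelial markers summed to 218 CPM in TN WT replicate 3 against at most 13.5 CPM elsewhere. Of the 8 marker lists, 4 did not overlap between the 6 TN and the 6 cold libraries. Adipocyte, endothelial (788 to 953 CPM at TN and 957 to 1052 CPM in cold) and sebaceous gland sums (3.84 to 9.14 CPM at TN and 14.5 to 20.1 CPM in cold) were higher in cold, and lymphocyte sums were lower (738 to 1200 CPM at TN and 418 to 704 CPM in cold). Macrophage, skeletal muscle, epithelial and Schwann cell sums overlapped. The temperature groups thus differed in the sums of the 4 lists without overlap in every comparison of cold with TN given here. The part of these cell types in the differences was not tested. In whole tissue, a change in the number of cells of a type and a change in RNA per cell cannot be told apart.

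**Figure D1:**
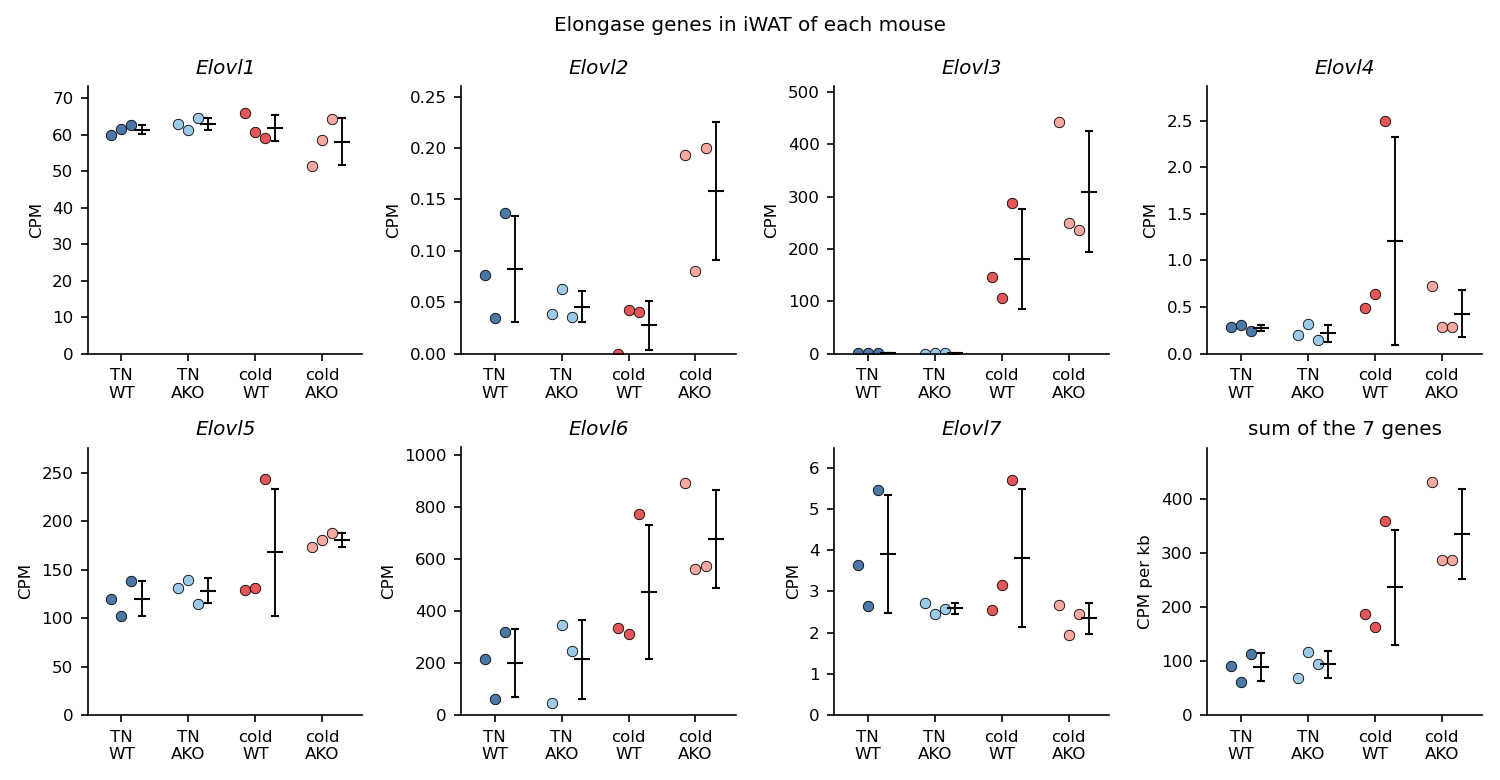
Level of each elongase gene in iWAT of every mouse, as CPM on a linear axis from 0 (points, 3 mice per group in replicate order; dash and bar, mean and SD), with the sum of the 7 genes as CPM per kb of exon in the last panel. Elovl3 lay at or below 0.283 CPM in the 6 TN mice and between 107 and 443 CPM in the 6 cold mice, whereas Elovl1 lay between 51.5 and 66.0 CPM in all 12.

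Elovl3 was nearly silent at TN and abundant in cold in both genotypes. TN WT mice had 11, 1 and 7 Elovl3 reads (0.280, 0.0343 and 0.239 CPM) and TN HIF2α AKO mice had 0, 9 and 7 reads (0, 0.283 and 0.247 CPM). Upon cold, the level was 145, 107 and 288 CPM in WT and 443, 249 and 237 CPM in HIF2α AKO mice. The lowest cold mouse was far above the highest TN mouse, and the genotypes overlapped at both temperatures. Sebaceous gland, another known site of Elovl3, had its marker Awat1 at 0 reads in all 12 libraries, and Awat2 at 0.177 to 0.750 CPM at TN and 0.242 to 0.805 CPM in cold. Of the other 4 markers of that list, Mc5r and Fa2h overlapped between TN and cold, and Krt79 (0.891 to 3.61 CPM at TN and 7.38 to 11.4 CPM in cold) and Scd3 did not. The mean level rose from 0.184 ± 0.132 CPM (SD, n = 3) to 180 ± 95.3 CPM (SD, n = 3) in WT, a log2 fold change of 9.83 (SE 0.67, edgeR quasi-likelihood adjusted p = 3.42e-05). In HIF2α AKO mice it rose from 0.177 ± 0.154 CPM (SD, n = 3) to 309 ± 116 CPM (SD, n = 3), a log2 fold change of 10.67 (SE 0.69, edgeR adjusted p = 1.84e-05). These are fitted folds of 913 (95% interval 328 to 2538) and 1630 (95% interval 569 to 4671), whose size rests on the 0 to 11 reads at TN. In each genotype, Elovl3 ranked 6th of the 15306 tested genes by p, and it was called in both under every alternative that was run. Ordered by CPM per kb of exon among 21777 genes, Elovl3 moved from a mean rank of 14822 to 591 in WT and from 14885 to 313 in HIF2α AKO mice.

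Elovl6, the palmitate elongase, was at 215, 60.6 and 321 CPM in TN WT and at 336, 313 and 773 CPM in cold WT mice. In TN HIF2α AKO mice it was at 47.8, 348 and 247 CPM, and in cold HIF2α AKO mice at 894, 563 and 573 CPM. The WT groups overlapped by 1 TN mouse above 1 cold mouse, and the HIF2α AKO groups did not overlap. The log2 fold change of cold against TN was 1.25 (SE 0.70, edgeR adjusted p = 0.199) in WT and 1.66 (SE 0.70, edgeR adjusted p = 0.0967) in HIF2α AKO mice, neither of them past the limit. The mice with the lowest Elovl6, TN WT replicate 2 and TN HIF2α AKO replicate 1, were also the lowest in fatty acid synthase (Fasn, 4363 and 4279 CPM) and in the adipocyte sum, and the part of cell make-up in these levels was not tested. Without these mice in turn, the log2 fold change was 0.81 in WT (edgeR adjusted p = 0.447) and 1.19 in HIF2α AKO mice (edgeR adjusted p = 0.222). Without cold WT replicate 3, the WT value was 0.71 (edgeR adjusted p = 0.559), and without TN WT replicate 3 it was 1.78. Without TN HIF2α AKO replicate 2, a library with muscle transcripts, the HIF2α AKO value was 2.20. No fit that left out 1 library passed the limit (lowest edgeR adjusted p = 0.115 in WT and 0.0625 in HIF2α AKO mice). With limma voom and sample quality weights, the HIF2α AKO value of 1.63 passed the limit (adjusted p = 0.0467).

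Elovl5, which lengthens polyunsaturated chains, was at 120, 102 and 138 CPM in TN WT and 128, 131 and 244 CPM in cold WT mice. It was at 131, 139 and 114 CPM in TN HIF2α AKO and 173, 181 and 187 CPM in cold HIF2α AKO mice. The WT groups overlapped, with cold WT replicate 3 alone above the TN range by a wide margin, while each cold HIF2α AKO mouse exceeded the TN mice of its genotype. The fitted log2 fold changes of 0.49 (SE 0.22, edgeR adjusted p = 0.127) in WT and 0.49 (SE 0.22, edgeR adjusted p = 0.111) in HIF2α AKO mice did not pass. Without cold WT replicate 3, the value was 0.12 in WT, and that of HIF2α AKO mice stayed at 0.49 and passed the limit (edgeR adjusted p = 0.0131). That library is not in the HIF2α AKO comparison but shares its fit, in which calls over all tested genes went from 27% to 31.3%. The HIF2α AKO value passed as well with voom (0.57, adjusted p = 0.0100) and with edgeR on the 2 groups compared (0.51, adjusted p = 0.0140). In the other 11 fits that left out 1 library, it did not pass (edgeR adjusted p up to 0.257).

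Elovl1, the broadly expressed elongase of saturated very long chains, was the steadiest member. Its level was 60.1, 61.7 and 62.7 CPM in TN WT, 63.1, 61.5 and 64.7 CPM in TN HIF2α AKO, 66.0, 60.9 and 59.2 CPM in cold WT and 51.5, 58.6 and 64.4 CPM in cold HIF2α AKO mice. The groups overlapped in all comparisons. The difference of cold against TN was 0.01 on the log2 scale in WT (SE 0.088, 95% interval -0.18 to 0.21) and -0.12 in HIF2α AKO mice (SE 0.088, 95% interval -0.31 to 0.08). A change of more than 0.31 on the log2 scale in either direction thus lay outside both intervals.

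The remaining members were scarce. Elovl4 had between 4 and 62 reads per library, at 0.280, 0.308 and 0.239 CPM in TN WT and 0.492, 0.641 and 2.49 CPM in cold WT mice. In TN HIF2α AKO mice it was at 0.195, 0.314 and 0.141 CPM, and in cold HIF2α AKO mice at 0.726, 0.281 and 0.280 CPM. The cold WT mice lay above all TN WT mice, with replicate 3 far above the other two, and the HIF2α AKO groups overlapped. Its log2 fold change upon cold of 2.12 in WT (SE 0.63) passed the limit (edgeR adjusted p = 0.0350), but it was 1.03 without cold WT replicate 3 (edgeR adjusted p = 0.211). Leaving out TN WT replicate 1, 2 or 3 also ended the call (edgeR adjusted p = 0.0939, 0.0982 and 0.0686), as did edgeR on the 2 groups alone (adjusted p = 0.0849). In HIF2α AKO mice the value was 0.93 (SE 0.72, edgeR adjusted p = 0.335), and it was 0.35 without cold HIF2α AKO replicate 1 and 1.31 without TN HIF2α AKO replicate 2.

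Elovl7 was at 3.64, 2.64 and 5.46 CPM in TN WT, 2.73, 2.45 and 2.58 CPM in TN HIF2α AKO, 2.55, 3.16 and 5.71 CPM in cold WT and 2.66, 1.93 and 2.44 CPM in cold HIF2α AKO mice. The highest values were those of replicate 3 in both WT groups, and all groups overlapped. Upon cold, the log2 fold change was -0.04 (SE 0.32, 95% interval -0.74 to 0.67) in WT and -0.14 (SE 0.33, 95% interval -0.87 to 0.59) in HIF2α AKO mice. TN WT replicate 3 is the library with epithelial transcripts, whose part in its Elovl7 level was not tested; without it, the WT value was 0.28. Elovl2, an elongase of polyunsaturated chains known from liver and retina, had between 0 and 5 reads in every library. It did not pass the filter and was not tested in the edgeR model of the 4 groups. At this depth, 0 reads allow up to 3 counts of a library, which limits any fold change of Elovl2.

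**Figure D2:**
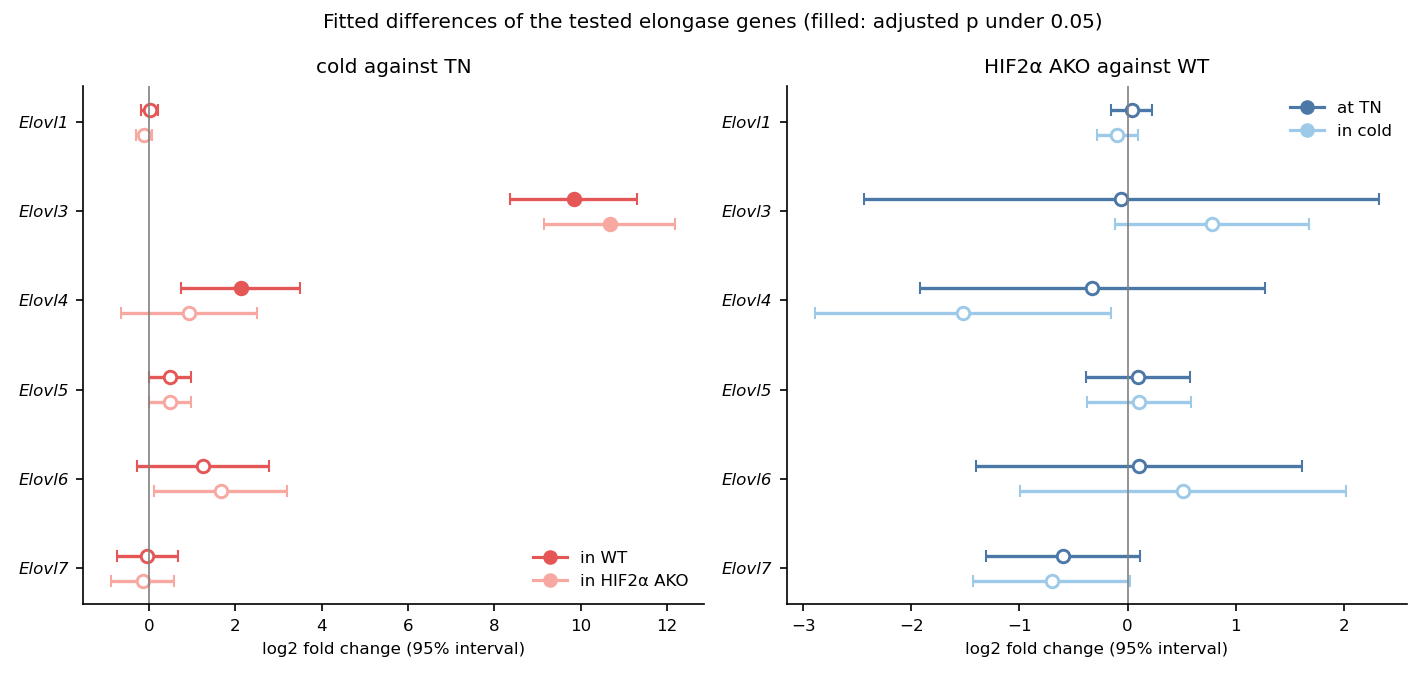
Fitted log2 fold changes (points) with 95% intervals (bars) of the 6 tested members, for cold against TN within each genotype (left) and for libraries labelled HIF2α AKO against WT at each temperature (right). Elovl3 stands at 9.83 and 10.67 upon cold, Elovl4 at 2.12 in WT is the other filled point, and no member is filled between the genotypes.

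Of the 6 members tested, 2 were called higher and 0 lower upon cold in WT, where 21.3% of all tested genes were called (15.6% higher). In HIF2α AKO mice 1 member was called higher and 0 lower, against 27% of all tested genes (15.6% higher). The members' median log2 fold change was 0.87 in WT and 0.71 in HIF2α AKO mice, and that of all tested genes was -0.03 and -0.05. Cold and TN groups did not overlap for 2 members in WT, Elovl3 and Elovl4, and for 3 members in HIF2α AKO mice, Elovl3, Elovl5 and Elovl6, all with cold above TN, as for 22.7 and 24.9% of all tested genes.

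Because the members differ in length, their levels were set against each other as CPM per kb of exon. At TN, Elovl5 was the highest on average (34.0 CPM per kb in WT and 36.4 in HIF2α AKO mice), followed by Elovl6 (30.9 and 33.3) and Elovl1 (22.6 and 23.1), and the ranges of neighbours in this order overlapped in both genotypes. Elovl7 lay below them without overlap (0.975 and 0.644), Elovl3 (0.0933 and 0.0894) and Elovl4 (0.0911 and 0.0716) overlapped each other, and Elovl2 was lowest (0.0208 and 0.0115). Upon cold, Elovl3 came first (91.2 CPM per kb in WT and 157 in HIF2α AKO mice) and overlapped Elovl6 in second place (73.7 and 105). Elovl6 overlapped Elovl5 (47.7 and 51.3) in WT and not in HIF2α AKO mice, and Elovl1 (22.7 and 21.3) lay below Elovl5 without overlap.

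The summed level of the family was 88.7 ± 25.9 CPM per kb (SD, n = 3) in TN WT and 93.7 ± 24.3 CPM per kb (SD, n = 3) in TN HIF2α AKO mice. Upon cold it was 237 ± 107 CPM per kb (SD, n = 3) in WT and 335 ± 84.0 CPM per kb (SD, n = 3) in HIF2α AKO mice. Every cold mouse was above every TN mouse. Elovl3 made up 0.0970% ± 0.0647 (SD, n = 3) of the sum in WT mice at TN and 37.7% ± 3.99 (SD, n = 3) upon cold. Its share in HIF2α AKO mice was 0.0845% ± 0.0733 (SD, n = 3) at TN and 45.8% ± 5.30 (SD, n = 3) upon cold. Elovl1 went from 27.1 to 10.9% of the sum in WT and from 26.0 to 6.70% in HIF2α AKO mice while its own level did not pass the test, and Elovl5 went from 39.6 to 20.5% and from 40.7 to 16.0%. The share of Elovl6 was 32.0% at TN and 30.4% in cold in WT, and 32.4 and 31.3% in HIF2α AKO mice. These shares describe the libraries and were not tested.

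**Figure D3:**
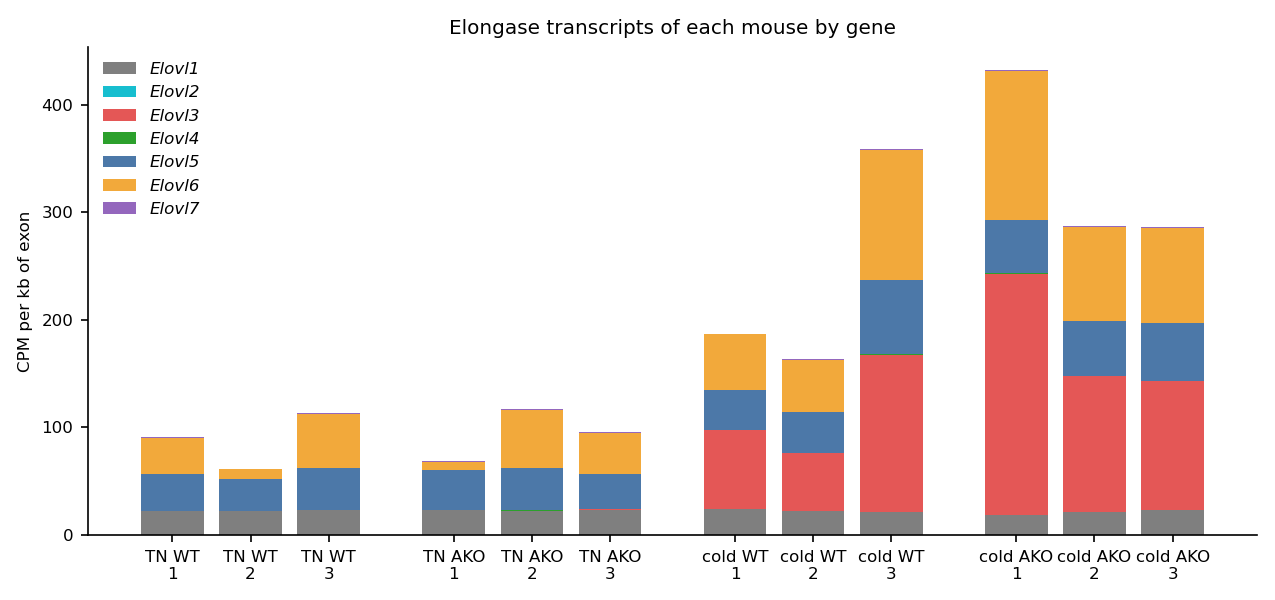
Elongase transcripts of each mouse as stacked CPM per kb of exon, 1 bar per library with the 7 members stacked. The Elovl3 segment is not visible in TN bars, where it is at most 0.156% of the sum, and takes 33.1 to 51.8% of each cold bar.

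Between the genotypes, 0 members were called at either temperature, where edgeR called 0.00653% of all tested genes at TN and 0.00653% in cold. At an unadjusted p below 0.05, 0 members passed at TN and 1, Elovl4, passed in cold, against 2.91 and 2.95% of all tested genes. In cold, Elovl3 was 0.78 higher on the log2 scale in libraries labelled HIF2α AKO (SE 0.41, 95% interval -0.11 to 1.68, edgeR adjusted p = 1.00), with cold WT replicate 3 within the HIF2α AKO range. Without that library the value was 1.29, and without cold HIF2α AKO replicate 1, the highest of its group, it was 0.43. Elovl6 was 0.51 higher (SE 0.69, 95% interval -0.995 to 2.02), or 1.06 higher when cold WT replicate 3 was left out, and 0.26 when cold HIF2α AKO replicate 1 was. Elovl5 was 0.11 higher (SE 0.22, 95% interval -0.38 to 0.59). Elovl1 differed by -0.09 (SE 0.088, 95% interval -0.29 to 0.10). Elovl4 was 1.52 lower on the log2 scale (SE 0.62, 95% interval -2.89 to -0.15, edgeR adjusted p = 1.00), and leaving out cold WT replicate 3 gave -0.42, whereas leaving out cold HIF2α AKO replicate 1 gave -2.10. Elovl7 differed by -0.70 (SE 0.33, 95% interval -1.43 to 0.02), or by -0.29 without cold WT replicate 3. At TN, the differences were 0.04 for Elovl1, -0.06 for Elovl3, -0.33 for Elovl4, 0.10 for Elovl5, 0.11 for Elovl6 and -0.60 for Elovl7, with SEs of 0.088, 1.08, 0.73, 0.22, 0.69 and 0.32.

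At the thresholds that the study set for cold libraries, an unadjusted p below 0.15 and an absolute log2 fold change above 0.2, 3 members passed in this edgeR model, Elovl3 as higher and Elovl4 and Elovl7 as lower, against 8.98% of all tested genes. With DESeq2 on the 6 cold libraries, 5 of 7 members passed, Elovl2, Elovl3 and Elovl6 as higher and Elovl4 and Elovl7 as lower, against 8.04% of all genes tested there. Elovl2 had 2 to 5 reads per library in the cold HIF2α AKO group and 0 or 1 in cold WT. The interaction of genotype and temperature was called for 0 members and for 0% of all tested genes in edgeR, and 327 genes (2.14%), among them 0 members, had an unadjusted p below 0.05. Its value for Elovl3 was 0.84 (SE 1.15, 95% interval -1.70 to 3.37), between 0.33 without TN HIF2α AKO replicate 1 and 1.35 without cold WT replicate 3, which leaves a wide range for a difference in the cold response between genotypes.

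The partners of elongases in the cycle catalyse its reduction and dehydration steps. Of 6 tested genes, 4 rose and 0 fell in WT, and 3 rose and 1 fell in HIF2α AKO mice, where 21.3 and 27% of all tested genes were called (15.6% higher in each genotype). Hsd17b12, the ketoacyl reductase of the cycle, rose from 165 ± 64.0 CPM (SD, n = 3) to 638 ± 276 CPM (SD, n = 3) in WT, a log2 fold change of 1.95 (SE 0.39, edgeR adjusted p = 0.00697), and by 1.75 on that scale in HIF2α AKO mice. The dehydratase genes Hacd2 and Hacd1, listed as Ptplb and Ptpla, rose by 1.65 and 0.91 in WT and by 1.35 and 0.95 in HIF2α AKO mice. Tecr, the enoyl reductase of the last step, rose by 0.90 in WT (edgeR adjusted p = 0.0405) and had a value of 0.80 in HIF2α AKO mice (edgeR adjusted p = 0.0519). Hacd4, listed as Ptplad2, was the gene that fell, by 0.76 in HIF2α AKO mice (edgeR adjusted p = 0.0455), where macrophage markers summed to between 1386 and 1620 CPM in cold and between 2448 and 2671 CPM at TN; their part in this value was not tested. Without TN WT replicate 1 or 2 or cold WT replicate 3, 2 partners were called in WT, and the share called of all tested genes was 11.7, 8.91 and 9.47%. Without TN HIF2α AKO replicate 1 or cold HIF2α AKO replicate 1, 2 were called in HIF2α AKO mice, and the share of all tested genes was 11.2 and 10.4%.

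Of 6 genes for malonyl-CoA and palmitate supply, 2 rose in each genotype, Acacb and Mlycd, and 0 fell, beside 15.6% of all tested genes higher. Acacb, the mitochondria-associated acetyl-CoA carboxylase, had log2 fold changes of 2.58 in WT and 2.65 in HIF2α AKO mice, and Mlycd, which degrades malonyl-CoA, of 1.50 and 1.64. The lipogenic enzymes Acly, Acaca and Fasn had values of 0.85, 0.46 and 0.99 in WT and 0.82, 0.43 and 0.80 in HIF2α AKO mice, with edgeR adjusted p-values between 0.238 and 0.546. Among 7 desaturases, 1 rose in each genotype, a share near the 15.6% of all tested genes called higher. It was Scd3, also a sebaceous gland marker, which had at most 11 reads in a TN library and 14 to 61 in a cold one and whose reads may be shared with other Scd genes. Its call in WT was lost without TN WT replicate 1 or 2 or cold WT replicate 3, when 0 desaturases were called, and 2 were called without TN WT replicate 3 or TN HIF2α AKO replicate 1. Scd1, which desaturates the stearate that Elovl6 makes, had values of 0.71 (edgeR adjusted p = 0.426) and 1.20 (edgeR adjusted p = 0.179). Of 4 tested ceramide synthases, which consume acyl-CoA of different chain lengths, Cers6 fell by 0.67 in WT and by 0.89 in HIF2α AKO mice. Cers2, the enzyme that prefers the longest of these chains in most tissues, rose by 0.43 in WT (edgeR adjusted p = 0.0166). It had a value of 0.27 in HIF2α AKO mice (edgeR adjusted p = 0.0706). Of this list, 1 rose and 1 fell in WT, and 0 rose and 1 fell in HIF2α AKO mice, against 21.3 and 27% of all tested genes called. Without TN WT replicate 2 or cold WT replicate 3, 1 ceramide synthase was called in WT, where the share of all tested genes was 8.91 and 9.47%.

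The genes that activate very long chain fatty acids and break them down in peroxisomes showed the most calls among the lipid lists, with 10 of 13 tested genes higher and 0 lower in each genotype and median log2 fold changes of 1.45 and 1.29, against 15.6% of all tested genes higher and medians of -0.03 and -0.05. Slc27a2, a very long chain acyl-CoA synthetase and fatty acid transporter, rose from 0.343 ± 0.159 CPM (SD, n = 3) to 46.3 ± 1.01 CPM (SD, n = 3) in WT, a log2 fold change of 7.01 (SE 0.49, edgeR adjusted p = 3.6e-05), and by 7.60 on that scale in HIF2α AKO mice. Abcd3, a peroxisomal acyl-CoA transporter, rose by 2.23 and 2.40. Ehhadh, the bifunctional enzyme of peroxisomal β-oxidation, rose by 2.46 and 2.6. Acaa1b, a peroxisomal thiolase with a close copy, Acaa1a, with which it may share reads, rose by 3.52 and 2.56. In HIF2α AKO mice, 4 genes of this list were called without TN HIF2α AKO replicate 1 and 4 without cold HIF2α AKO replicate 1, when calls over all tested genes fell from 27% to 11.2 and 10.4%.

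Of 11 regulators of lipogenic and elongase genes, 5 rose and 1 fell in WT, and 3 rose and 0 fell in HIF2α AKO mice, against the same 21.3 and 27% of all tested genes. Ppara, the receptor that drives fatty acid oxidation genes, rose by 3.33 on the log2 scale in WT and by 2.98 in HIF2α AKO mice, Nr1h3, which encodes LXRα, by 1.12 and 0.73, and Srebf1, which encodes the lipogenic factor SREBP1, by 1.15 and 0.98. Srebf2, its counterpart for cholesterol synthesis, fell by 0.39 in WT (edgeR adjusted p = 0.0354) and had a value of -0.21 in HIF2α AKO mice. In WT, 2 regulators were called without TN WT replicate 1 or 2 or without cold WT replicate 3, beside 11.7, 8.91 and 9.47% of all tested genes in place of 21.3%. When cold HIF2α AKO replicate 2 was left out, 3 were called, beside 17.3%. In HIF2α AKO mice, 1 was called without TN HIF2α AKO replicate 1 or without cold HIF2α AKO replicate 1, beside 11.2 and 10.4%. Of 8 thermogenic genes, 7 rose in WT and 8 in HIF2α AKO mice, with 0 lower, against 15.6% of all tested genes higher. Between the genotypes, 0 genes of these 7 lists were called at either temperature. The smallest unadjusted p in cold was that of Slc27a2, which was 1.03 higher on the log2 scale in libraries labelled HIF2α AKO (SE 0.33, unadjusted p = 0.00946 and adjusted p = 1.00 in edgeR). Slc27a2 was at 46.2, 45.4 and 47.4 CPM in cold WT and 146, 73.8 and 64.7 CPM in cold HIF2α AKO mice. The highest of these was replicate 1, a library with muscle transcripts.

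**Figure D4:**
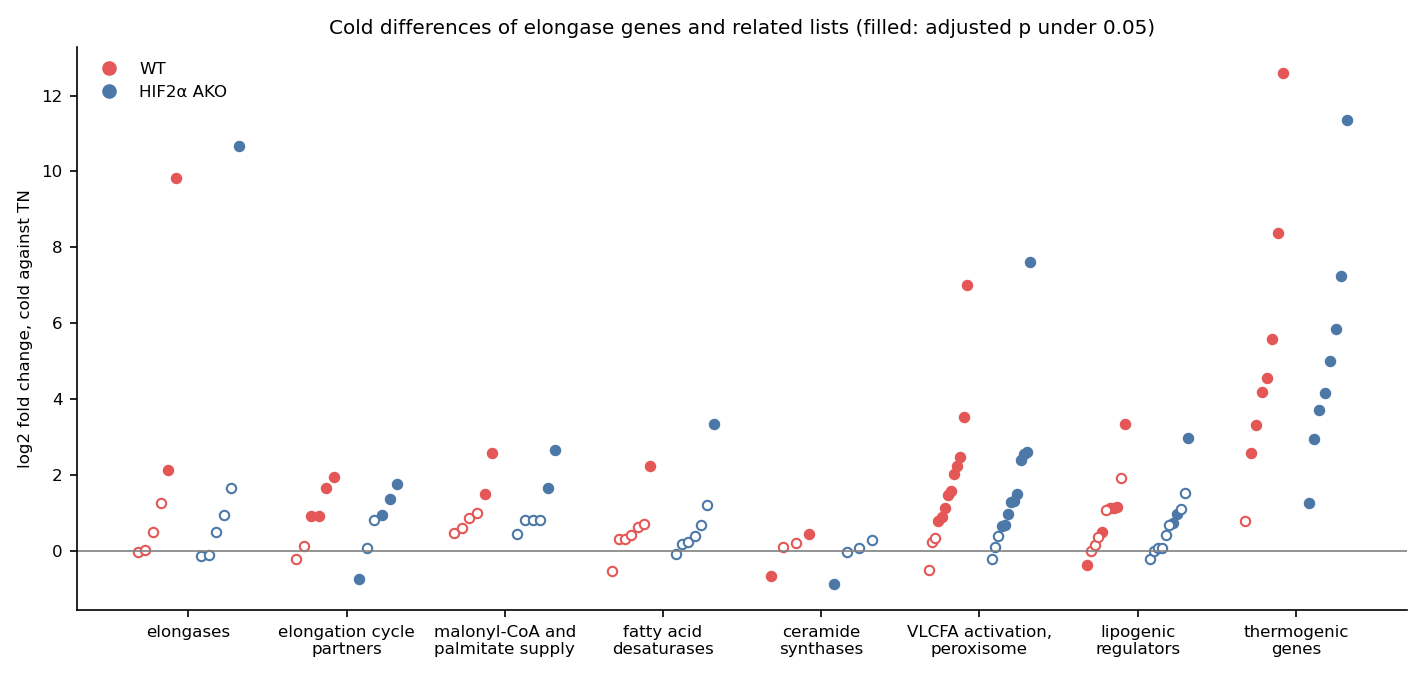
Log2 fold change of cold against TN for each tested elongase and each tested gene of the 7 related lists, in WT (red) and HIF2α AKO mice (blue); filled points have an adjusted p below 0.05. Elovl3, at 9.83 and 10.67, lies in the range of the thermogenic genes, between Dio2 (8.38 and 7.24) and Ucp1 (12.61 and 11.37).

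The genes whose levels followed those of called members most closely were found by the root mean square difference between mean-centred log2 CPM over the 12 libraries. These libraries fall into cold and TN ones, so for Elovl3 the measure mostly reflects the size of that difference. The closest gene to Elovl3, whose own SD over the libraries was 5.29 on this scale, was Fabp3, a fatty acid binding protein (0.97), followed by Dio2, which activates thyroid hormone (1.36), Ucp1, the uncoupling protein (1.49), Slc27a2 (1.71) and A530050N04Rik (1.89). Upon cold, Fabp3 went from 0.319 ± 0.189 CPM (SD, n = 3) to 431 ± 138 CPM (SD, n = 3) in WT mice. It went from 0.993 ± 0.596 CPM (SD, n = 3) to 834 ± 265 CPM (SD, n = 3) in HIF2α AKO mice. For Elovl4, with an SD of 0.95, the closest genes were Lrrc9 (0.44), Kcnc2 (0.47), Gm7120 (0.47), Cpeb2 (0.48) and Vipr2 (0.51). In cold WT, Kcnc2 reached 10.1 CPM and Cpeb2 117 CPM in their highest mouse, against medians of 4.4 and 54.4 CPM.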

How the data were processed

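The authors trimmed reads with Trim Galore 0.4.4, aligned them with STAR 2.6.1d to GRCm38 and deposited raw read counts per gene from HTSeq 0.13.5, without normalization; the annotation and strand setting are not given in the sources used here. Where Elovl1 overlaps Cdc20, Elovl3 Pitx3, Elovl6 Gm35986 and Gm43072, and Elovl7 Gm32376 and Gm30747, reads can therefore not be told apart. Tallies of reads outside genes, 21.9 to 27.0% of those listed per library, were left out. Counts were analysed in R 4.3.3 with edgeR 4.0.16 (filterByExpr with a minimum count of 10, TMM, glmQLFit with 4 groups, common BCV 0.202), and with limma 3.58.1 and DESeq2 1.42.0 as alternatives, each tested on simulated data. In the model of the 4 groups, p-values rest on a spread between mice that is pooled over the 4 groups of 3. Limits from counts cover counting error only. Levels per kb used the exon union of GENCODE vM21. The 7 members, the 7 gene lists (59 genes, all 59 matched, 4 of them in the lipid lists under an older symbol) and the 8 marker lists were chosen with earlier results of these data known. Named list genes were taken from up to 4 per list with the smallest adjusted p upon cold and up to 3 with the smallest p between cold genotypes. Not all of these are given. Acly, Acaca and Fasn were added after their values were seen. For each called member, 5 genes with the closest pattern were named.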

Additional observations from a re-analysis of the deposited data

How the results depend on the processing

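Elovl3 kept its cold call under all alternatives, with leave-one-out log2 fold changes of 9.32 to 10.31 in WT and 10.16 to 11.17 in HIF2α AKO mice. Upon cold, 1 member was called in WT with a replicate block (16.7% of all tested genes) and with edgeR on the 2 groups compared (11.7%), and between 1 and 2 when a library was left out (8.91 to 24.1%). In HIF2α AKO mice, 3 of 6 were called with voom, which called 40.1% of all tested genes, 2 with edgeR on the 2 groups (28.8%), and between 1 and 2 when a library was left out (10.4 to 31.3%). Between cold genotypes, 3 members passed the study's thresholds in edgeR (8.98% of all tested genes) and 5 in DESeq2 on the 6 cold libraries (8.04%), and 0 were called otherwise. Of 18 correlations between the deviations of same-numbered libraries from their group means, 5 exceeded 0.1 (range -0.43 to 0.39). Differently numbered libraries were not compared, so these values cannot show whether replicate numbers pair the samples. The block moved Elovl4 in cold WT to 2.01 (edgeR adjusted p = 0.0754) and Elovl3 between TN genotypes to 0.0068. It changed no other call of a member. Values near 0 changed sign. For cold against TN in WT, Elovl1 was -0.024 without the filter on low counts and between -0.034 and 0.046 when a library was left out, and Elovl7 lay between -0.45 and 0.28. Between TN genotypes, leaving out a library gave -0.56 to 0.45 for Elovl3, -0.0063 to 0.21 for Elovl5 and -0.43 to 0.64 for Elovl6, which was -0.43 without the 2 libraries with muscle transcripts, an alternative chosen after the data were seen. Between cold genotypes, Elovl5 lay between -0.055 and 0.48. For the interaction, Elovl5 lay between -0.15 and 0.38, Elovl6 between -0.12 and 0.95, and Elovl7 between -0.42 and 0.31, or at 0.018 with voom. The causes were not tested. Lengths of the longest coding transcript in place of the exon union, also chosen later, gave Elovl3 shares of 29.7 to 49.3% in cold libraries. Elovl2, Elovl3 at TN and Elovl4 rest on 0 to 62 reads, which limits their fold changes.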
